A study of Mus musculus with 3 samples.

Results

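The gamma delta T cells of mouse dorsal skin were examined across 3 single-cell libraries, 1 per group. They made up 448 of 16604 cells that passed the quality limits. A cell was counted as a gamma delta T cell when it held at least 2 UMIs of Cd3e, Cd3d and Cd3g together, which encode signalling chains of the T cell receptor complex, and at least 1 UMI of Trdc and Tcrg-C1, the constant segments of the delta and gamma receptor chains. A UMI is 1 counted transcript molecule. Cells with more than 2 UMIs of the macrophage genes C1qa, C1qb and C1qc, or with 5 or more of the basal keratinocyte genes Krt14 and Krt5, were left out. The cells were chosen by the measured levels of these genes, which are therefore descriptions only.

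Skin was taken from male C57Bl/6 mice of 8 weeks in telogen, the resting phase of the hair cycle, and immune cells were enriched with CD45+ magnetic beads. WT_Ctrl was wild-type skin without UVB, and WT_UV was wild-type skin after 3 exposures to UVB given once every other day. RP_UV received the same exposures and came from Rosa26-rtTA; Tre-Ptgs2 mice, in which doxycycline switches on rat Ptgs2, the gene of the prostaglandin enzyme Cox-2, in cells throughout the body. Each group was 1 library of 10x 3′ reads, from 1 male per group as the study describes it. No difference between groups therefore had a replicate check, no p-value was computed, and every 95% interval below covers counting error only. WT_UV was sequenced on a flow cell of its own, while WT_Ctrl and RP_UV shared one, so that sequencing run and group cannot be told apart wherever WT_UV is compared. RP_UV and WT_Ctrl differed in both UVB and genotype.

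Gamma delta T cells carry a receptor of gamma and delta chains in place of the alpha and beta chains of conventional T cells. In mouse skin they form a pair of well-known populations. Dendritic epidermal T cells sit among keratinocytes, use a nearly invariant receptor, carry NK-type receptors and killing molecules such as perforin, and release the chemokine Xcl1 and repair factors when keratinocytes are stressed. Dermal gamma delta T cells of the Il17 type depend on transcription factors that include Maf and Sox13, sense Il23 and Il1, and release Il17a. Both populations are kept together here.

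The stretches before the transcription start of 2 genes of the epidermal type and 2 of the Il17 type are shown because the results turn on these 2 programmes. They are the 250 bases before the start in RefSeq (build GRCm38.p6), written in the direction of transcription. Capitals mark matches on either strand to an AP-1 site (TGANTCA), a Runx site (TGTGGTT) or a T-box site (TCACACC).
Xcl1 chr1:164935523-164935772 (minus strand): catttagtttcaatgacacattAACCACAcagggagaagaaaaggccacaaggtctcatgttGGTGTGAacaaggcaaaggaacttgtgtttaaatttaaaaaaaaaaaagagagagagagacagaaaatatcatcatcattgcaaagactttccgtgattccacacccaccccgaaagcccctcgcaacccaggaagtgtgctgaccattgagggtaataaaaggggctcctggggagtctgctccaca
Nkg7 chr7:43436888-43437137 (plus strand): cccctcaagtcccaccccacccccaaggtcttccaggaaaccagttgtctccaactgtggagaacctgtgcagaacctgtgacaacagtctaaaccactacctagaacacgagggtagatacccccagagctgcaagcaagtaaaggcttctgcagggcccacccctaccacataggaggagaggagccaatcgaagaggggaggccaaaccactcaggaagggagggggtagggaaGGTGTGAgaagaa
Cd163l1 chr7:140218017-140218266 (plus strand): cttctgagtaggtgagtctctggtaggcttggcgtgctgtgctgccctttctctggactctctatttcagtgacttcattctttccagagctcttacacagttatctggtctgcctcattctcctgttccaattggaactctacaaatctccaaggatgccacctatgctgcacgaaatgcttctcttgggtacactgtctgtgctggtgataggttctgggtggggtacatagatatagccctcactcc
Il17a chr1:20730655-20730904 (plus strand): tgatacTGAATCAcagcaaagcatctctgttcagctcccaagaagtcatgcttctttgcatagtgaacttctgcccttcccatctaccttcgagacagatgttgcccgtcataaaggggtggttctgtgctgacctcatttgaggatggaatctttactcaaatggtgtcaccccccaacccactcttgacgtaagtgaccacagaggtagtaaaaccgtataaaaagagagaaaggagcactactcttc
Xcl1 held 1 Runx and 1 T-box match, and Nkg7 held 1 T-box match starting 13 bases before the transcription start. Il17a held 1 match to the AP-1 letters as set here, TGAATCA, where the N of the motif stands for any base. Cd163l1 held none of the 3 motifs in this window. Among 27025 RefSeq promoters of the same length, 6.87% held the AP-1 motif, 4.46% the Runx motif and 3.31% the T-box motif. The matches describe these letters and do not show binding.

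Gamma delta T cells made up the largest share of kept cells in WT_UV and the smallest in RP_UV. WT_Ctrl held 93 of them among 5309 kept cells (1.75%, Wilson 95% interval 1.43 to 2.14). WT_UV held 322 among 5225 (6.16%, 5.54 to 6.85), and RP_UV held 33 among 6070 (0.544%, 0.387 to 0.762). The 3 intervals did not overlap. The share in WT_UV was 3.52 times that in WT_Ctrl (2.8 to 4.42), and the share in RP_UV was 0.31 times that in WT_Ctrl (0.209 to 0.461). Without the limits on C1q and keratin genes the latter ratio was 0.500 (0.361 to 0.693). When every kept cell was thinned to 1000 UMIs before selection, the ratio of WT_UV to WT_Ctrl was 3.09 (2.43 to 3.94). With cells holding a UMI of Ptprc, the gene of CD45, as the denominator, it was 2.3 (1.83 to 2.91). Cells with Ptprc numbered 2742 in WT_Ctrl, 4364 in WT_UV and 2739 in RP_UV, so the makeup of the kept cells differed. These shares describe composition after enrichment and not the abundance of the cells in skin.

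Among T cells alone, RP_UV was not the lowest. WT_Ctrl had a gamma delta share of 24.9% among 374 T cells (20.8 to 29.5), WT_UV one of 45.2% among 712 (41.6 to 48.9), and RP_UV one of 57.9% among 57 (45 to 69.8). Other T cells were likewise few in RP_UV, at 21 cells against 272 and 381. After thinning to 1000 UMIs the gamma delta shares of T cells were 33.6%, 54.7% and 57.1%, and the ratio of RP_UV to WT_UV was 1.04 (0.794 to 1.37). Without thinning, the ratio was 2.02 when cells holding Trac, Cd4, Cd8b1 or Foxp3 were no longer counted as gamma delta T cells. Those cells stayed among the T cells of the denominator.

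**Figure D1:**
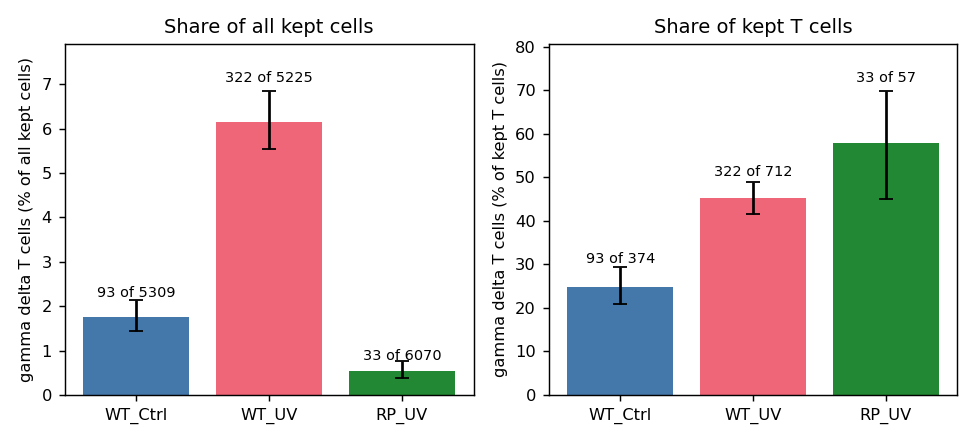
Share of gamma delta T cells (vertical axis, %) among all kept cells (left) and among kept T cells (right) in each library. Bars are shares with Wilson 95% intervals and the counts above them, and the bar of RP_UV is the lowest on the left, at 0.544%, and the highest on the right, at 57.9%.

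Few cells lay at the limits on receptor UMIs, while the limit on C1q removed more. A median gamma delta T cell held 16 UMIs of Trdc and Tcrg-C1 in WT_Ctrl, 20 in WT_UV and 6 in RP_UV, while 5, 20 and 4 cells held exactly 1. Just outside the limit, 1, 5 and 2 cells had a UMI of these genes but only 1 UMI of the CD3 genes. The limit on C1q removed 5, 73 and 22 cells that met the receptor limits, the last against 33 cells kept in RP_UV. At least 1 UMI of Trac, the constant segment of the alpha chain, was present in 28, 122 and 1 gamma delta T cells. No gamma delta T cell barcode was shared between libraries.

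Depth differed between the libraries and bears on every comparison. The median gamma delta T cell held 2661 UMIs in WT_Ctrl, 6065.5 in WT_UV and 2486 in RP_UV, and their summed UMIs were 334582, 3188822 and 98046. One UMI was thus worth 2.99, 0.314 and 10.2 CPM, the UMIs of a gene scaled to a fixed total for the summed cells. A subset drew at least 1% of its UMIs from Cd74, H2-Aa, H2-Ab1, H2-Eb1 and Lyz2, the MHC class II and myeloid genes of antigen-presenting cells. These MHC-rich members numbered 15 (16.1%) in WT_Ctrl, 69 (21.4%) in WT_UV and 3 (9.09%) in RP_UV, and held 36%, 49.9% and 26.2% of the summed UMIs. Their median depth was 8139, 23835 and 7177 UMIs, against 2487, 5306 and 2142 in the other members. A doublet score among the top 5% of the library was held by 14 of 15, 22 of 69 and 0 of 3 of them. Values without MHC-rich members are given beside the main results. That comparison was chosen after the data had been seen.

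Genes that the selection did not use also marked these cells. Xcl1, the chemokine of dendritic epidermal T cells, stood at 1961 CPM in gamma delta T cells of WT_Ctrl against 76.6 CPM in other T cells of that library, a 25.6-fold difference (20.3 to 32.6). In WT_UV the levels were 701 and 62.5 CPM, an 11.2-fold difference (9.84 to 12.8). Nkg7, a membrane protein of cytotoxic granules, was 2.78-fold higher in WT_Ctrl (2.51 to 3.07) and 2.2-fold higher in WT_UV (2.07 to 2.34). After thinning to 1000 UMIs, a UMI of Xcl1 was found in 72.5%, 38.6% and 31% of gamma delta T cells of WT_Ctrl, WT_UV and RP_UV, and in 0%, 0.0875% and 0.04% of macrophages. The macrophages, set here as cells with at least 5 C1q UMIs and no CD3 UMI, had medians of 3864, 11420.5 and 4712 UMIs.

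Of 3014 genes compared, 119 (3.95%) were at least 2-fold higher in gamma delta than in other T cells in both wild-type libraries, and 45 (1.49%) at least 2-fold lower. Other T cells were CD3-positive cells with a UMI of Trac, Trbc1 or Trbc2 and none of Trdc or Tcrg-C1, and both counts include genes that follow from this choice. Without MHC-rich members 203 (6.61%) were higher and 71 (2.31%) lower. The epidermal-type list contributed 5 of its 8 compared genes to the higher group and 1 to the lower, and the list of cytotoxic genes and NK receptors 9 and 2 of 15. Trdv4, a variable segment of the delta chain, stood at 750 CPM against 1.87 CPM in WT_Ctrl and 552 against 9.63 CPM in WT_UV. Fermt2, which activates integrins, stood at 526 against 3.74 CPM in WT_Ctrl and 278 against 1.48 CPM in WT_UV.

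Further genes outside the receptor marked the gamma delta T cells in both wild-type libraries. Prf1, the pore-forming perforin, was 47.3-fold higher than in other T cells in WT_Ctrl (27 to 90.4) and 21-fold higher in WT_UV (15.5 to 29.3). Avil and Col27a1, an actin-binding protein and a fibrillar collagen, were at 266 and 275 CPM in WT_Ctrl and at 115 and 98.5 CPM in WT_UV, with at most 1.48 CPM in other T cells. Cd163l1, a scavenger-type receptor of the Il17 type, was 19.2-fold higher in WT_Ctrl (5.6 to 102) and 27.9-fold higher in WT_UV (15.3 to 56.7). Areg, the growth factor amphiregulin, was 14.7-fold higher in WT_Ctrl (10.3 to 21.6) but 2.03-fold higher in WT_UV (1.74 to 2.37). Itgae, the integrin chain that binds keratinocyte E-cadherin, had ratios to other T cells near 1, at 0.897 times in WT_Ctrl (0.713 to 1.12) and 1.02 times in WT_UV (0.928 to 1.12).

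Other genes were lower in gamma delta T cells than in other T cells. The co-stimulatory receptors Cd28 and Icos of conventional T cells stood at 26.9 and 2.99 CPM in gamma delta T cells of WT_Ctrl, against 293 and 309 CPM in other T cells. The CD8 chain Cd8b1 was at 38.9 against 305 CPM in WT_Ctrl and 33.6 against 178 CPM in WT_UV. Ifng, the cytokine interferon gamma, was at 14.9 against 258 CPM in WT_Ctrl and 32 against 165 CPM in WT_UV. Rora, a nuclear receptor, was at 44.8 against 214 CPM and 103 against 287 CPM. These genes of the lower group were picked out after their values were seen.

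**Figure D2:**
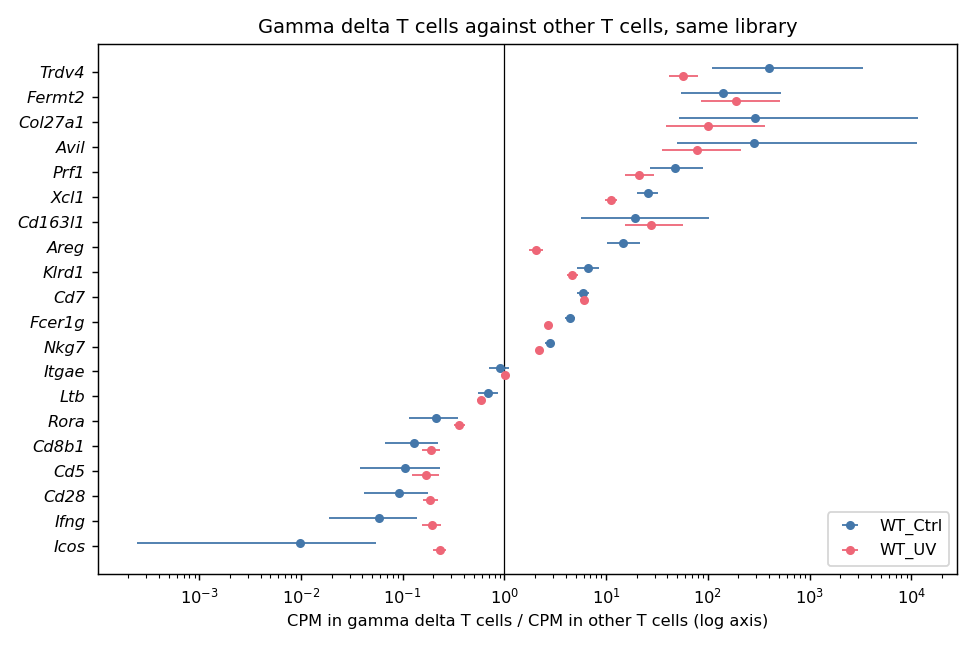
Ratio of CPM in gamma delta T cells to CPM in other T cells of the same library (horizontal log axis) for 20 genes in WT_Ctrl (blue) and WT_UV (red), with exact 95% counting intervals. Both libraries lie on the same side of 1 for each gene other than Itgae, and Areg moves from 14.7 in WT_Ctrl to 2.03 in WT_UV.

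To see how the epidermal and Il17 programmes were spread over single cells, each gamma delta T cell was thinned to 1000 UMIs and the UMIs of the 2 lists were summed. A cell leaned to a list when it held at least 2 of its UMIs and at least 2 times the UMIs of the other list. This is a range along a score and not a cell type. WT_Ctrl had 82 epidermal-leaning cells of 91 (90.1%, 82.3 to 94.7), WT_UV had 237 of 319 (74.3%, 69.2 to 78.8), and RP_UV had 19 of 29 (65.5%, 47.3 to 80.1). Il17-leaning cells were 5 of 91 (5.49%, 2.37 to 12.2), 33 of 319 (10.3%, 7.46 to 14.2) and 3 of 29 (10.3%, 3.58 to 26.4). Cells leaning to neither were 4, 49 and 7, a share 3.49 times as large in WT_UV as in WT_Ctrl (1.3 to 9.43) and 5.49 times as large in RP_UV as in WT_Ctrl (1.73 to 17.4). Cells with at least 2 UMIs of a list but under 2 times the other numbered 0, 4 and 1. Of the Il17-leaning cells, 1, 7 and 2 held exactly the minimum of 2 UMIs, and of the epidermal-leaning cells 2, 23 and 0.

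The ratio of Il17-leaning shares between WT_UV and WT_Ctrl was 1.88, and its interval of 0.757 to 4.68 included 1. Over 20 random draws of the thinning, Il17-leaning cells numbered 3 to 5 in WT_Ctrl, 27 to 42 in WT_UV and 0 to 4 in RP_UV. The ratio of WT_UV to WT_Ctrl lay between 1.54 and 3.8. The epidermal-leaning share was 0.824 times as large in WT_UV as in WT_Ctrl (0.751 to 0.906). Among cells with no Il17-list UMI, the median number of epidermal-list UMIs was 12.5 of 1000 for WT_Ctrl (74 cells), 7 for WT_UV (232 cells) and 9 for RP_UV (17 cells). Without MHC-rich members these medians were 14, 8 and 14.

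**Figure D3:**
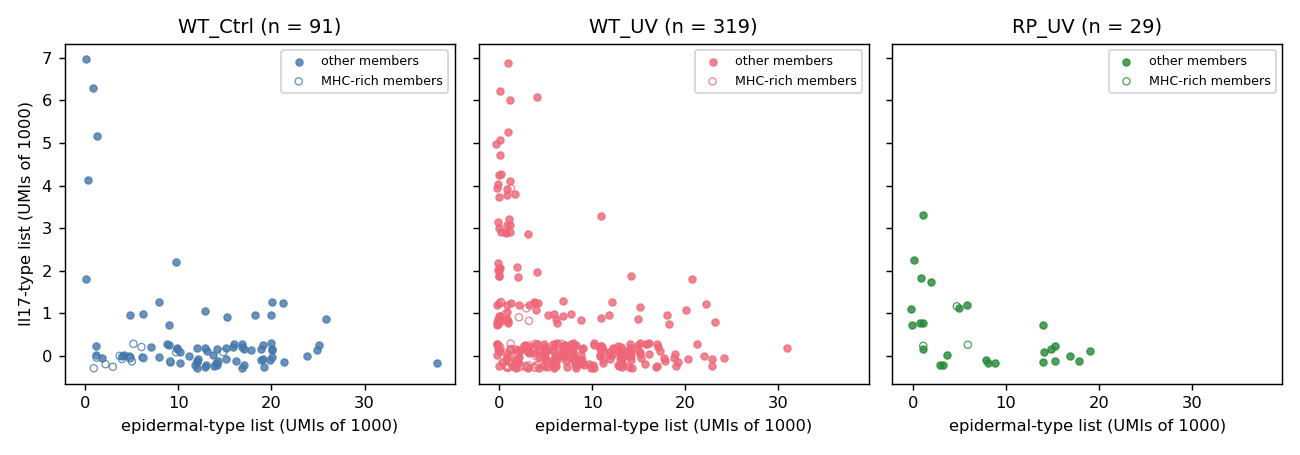
UMIs of the Il17-type list (vertical axis) against UMIs of the epidermal-type list (horizontal axis) in each gamma delta T cell after thinning to 1000 UMIs, with a small random offset for display. Open circles are MHC-rich members, and in each library most cells lie along the horizontal axis while the 5, 33 and 3 Il17-leaning cells lie along the vertical one.

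The leaning groups also differed in genes outside both lists. Genes are named here from the other lists for the size of that difference, so they describe it and do not test it. The share of all genes that differed is not given. In WT_UV the 33 Il17-leaning cells held 241681 UMIs and the 237 epidermal-leaning cells 2290236. Without MHC-rich members the totals were 223644 UMIs in 32 cells and 1144748 in 187. Leaving them out thus cut mainly the epidermal-leaning total, and values here and in the next paragraph include them. Without them the ratio of Il17-leaning to epidermal-leaning cells moved from 1.24 to 0.797 for Trdv4, so small contrasts are not firm. For Lck the reverse ratio moved from 23.1 to 33.9. Sox13, a transcription factor of the Il17 type, had 32 UMIs (132 CPM) in the former and 2 UMIs (0.873 CPM) in the latter, a 152-fold ratio with an interval of 38.7 to 1306. Il7r, the receptor chain for the survival cytokine Il7, stood at 885 against 107 CPM, 8.24-fold higher (6.83 to 9.94). Ccr6, a homing receptor, was 12.4-fold higher (7.67 to 20.4), and Ikzf3, a lymphoid transcription factor, 13.3-fold higher (9.27 to 19.1). Cxcr6, Il18r1, Rora and Ltb, a chemokine receptor, the Il18 receptor chain, a nuclear receptor and a lymphotoxin, were 5.14-, 5.67-, 4.59- and 3.81-fold higher.

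Several killing and NK-type genes were higher in epidermal-leaning cells, but not all such genes were. Cd226, an adhesion receptor of T and NK cells, was 4.92-fold higher in Il17-leaning cells (3.27 to 7.3). Hcst, an adaptor of NK-type receptors, stood at 422 CPM in Il17-leaning and 337 CPM in epidermal-leaning cells, a small contrast that is not firm, as for Trdv4 above. Prf1 had 671 UMIs (293 CPM) in epidermal-leaning and 1 UMI (4.14 CPM) in Il17-leaning cells of WT_UV. Ctsw, a protease of cytotoxic cells, stood at 610 against 62.1 CPM, and Klrb1b, an NK-type receptor, at 246 against 29 CPM. Cd9, a tetraspanin, Lck, the proximal kinase of the receptor, and Ahr, the aryl hydrocarbon receptor, were at 322, 191 and 217 CPM in epidermal-leaning cells and at 29, 8.28 and 29 CPM in Il17-leaning cells. Transcripts of Il17a and Il22 were sparse. Il17a had 3, 35 and 4 UMIs in WT_Ctrl, WT_UV and RP_UV and was found in 1.08%, 2.8% and 3.03% of the cells, and Il22 had 5 UMIs in Il17-leaning cells of WT_UV and 0 in epidermal-leaning cells.

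**Figure D4:**
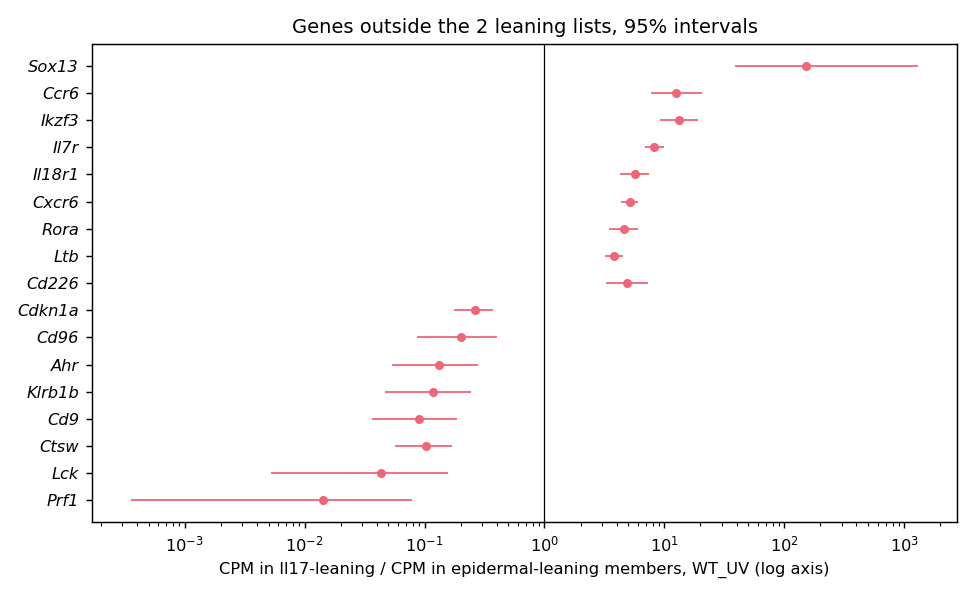
Ratio of CPM in Il17-leaning to CPM in epidermal-leaning gamma delta T cells of WT_UV (horizontal log axis) for 17 genes outside both lists, with exact 95% counting intervals. The upper 9 genes, from Sox13 to Cd226, lie above 1 and the lower 8, from Cdkn1a to Prf1, below it. List genes were named for their difference between these groups, so the split is a description and not a test.

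Between WT_UV and WT_Ctrl, 3154 genes with a mean of at least 50 CPM were compared on log2(CPM + 1). The median of all of them was −0.11. In WT_UV, 83 genes (2.63%) were at least 2-fold higher and 120 (3.8%) at least 2-fold lower. Scaling by the median ratio instead of total UMIs gave 111 higher and 80 lower. Without MHC-rich members the counts were 85 (2.62%) and 114 (3.52%) of 3240 genes, and in epidermal-leaning members without MHC-rich ones 91 (2.74%) and 78 (2.35%) of 3319.

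The epidermal-type list was lower in WT_UV as a group. All 7 compared genes of the list lay below WT_Ctrl, 3 of them by at least 2-fold, and their median log2 difference was −0.91. The medians of the genes' lower and upper counting bounds, given in brackets after each list median, were −1.17 and −0.64. Without MHC-rich members the median was −0.80, and 1 of 8 compared genes was at least 2-fold lower. In epidermal-leaning members without them the median was −0.50, 0 of 8 were at least 2-fold lower, and 2 of 8, Tcrg-V5 and Itgae, lay above WT_Ctrl. Epidermal-leaning members were chosen by their UMIs of this same list, which kept 90.8% of such thinned cells in WT_Ctrl and 74.5% in WT_UV. The values of its genes in them, here and below, are therefore descriptions only and cannot test the difference. The summed level of the list was 9821 CPM in WT_Ctrl, 4813 in WT_UV and 5446 in RP_UV. The lower level was not particular to this list. All 8 compared genes of the T cell receptor and CD3 list, without the genes that chose the cells, also lay below WT_Ctrl. Their median was −0.69 (−1.12 to −0.30), and 1 was at least 2-fold lower. Without MHC-rich members that median was −0.25 (−0.87 to 0.11).

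For Xcl1, WT_Ctrl had 1961 CPM (1813 to 2117), WT_UV had 701 (672 to 730) and RP_UV had 806 (638 to 1004). WT_Ctrl lay above both irradiated libraries, and the level in WT_UV was 2.8-fold lower (2.56 to 3.05). The difference was 2.08-fold without MHC-rich members and 1.64-fold in epidermal-leaning members without them. Nkg7 was at 2158, 909 and 1051 CPM, 2.37-fold lower in WT_UV (2.18 to 2.58), 1.96-fold without MHC-rich members and 1.55-fold in epidermal-leaning members without them. Cd7, a surface protein of the immunoglobulin family, was at 2000, 923 and 775 CPM, 2.17-fold lower in WT_UV (1.99 to 2.36), and 1.91- and 1.53-fold in the same subsets. Fcer1g, a signalling adaptor shared by NK-type receptors and Fc receptors, was at 2280, 1392 and 1897 CPM. A UMI of Fcer1g was also found in 84.2%, 80.8% and 92% of thinned macrophages, and the part of myeloid RNA in its level was not tested. Itgae, at 305, 251 and 122 CPM, was 1.22-fold lower in WT_UV with an interval of 0.98 to 1.5.

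The levels of genes that chose the cells are given as descriptions and not as a result. From here on, 3 levels that follow each other are in the order WT_Ctrl, WT_UV and RP_UV. Trdc was at 4178, 1654 and 1958 CPM, Tcrg-C1 at 846, 533 and 459 CPM, and Cd3g at 6444, 2825 and 3396 CPM. In epidermal-leaning members without MHC-rich ones, WT_Ctrl and WT_UV had 5823 and 2952 CPM of Trdc. Tcrg-C1 was at 1200 and 1003 CPM there, and Cd3g at 8849 and 5526 CPM. Outside the selection, Trdv4 was at 750, 552 and 286 CPM, 1.36-fold lower in WT_UV (1.19 to 1.55) and 1.07-fold lower without MHC-rich members (0.924 to 1.24). Tcrg-V5, the variable segment of dendritic epidermal T cells, had 15, 98 and 2 UMIs, and its ratio of WT_UV to WT_Ctrl was 0.685 (0.396 to 1.27). No UMI of Tcrg-V5 was counted in other T cells of WT_Ctrl or WT_UV.

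Cytotoxic genes were mostly lower in WT_UV and were not uniform. Of 13 compared genes of this list, 1 was at least 2-fold higher and 4 at least 2-fold lower, with a median of −0.82 (−1.03 to −0.60). Without MHC-rich members 1 of 14 was higher and 2 lower (median −0.74), and in epidermal-leaning members without them 1 of 15 was higher and 1 lower (median −0.35). Prf1 was at 574, 223 and 296 CPM, 2.57-fold lower in WT_UV (2.18 to 3.02), 2.14-fold without MHC-rich members and 1.67-fold in epidermal-leaning members without them. Ctsw was at 998, 471 and 337 CPM, 2.12-fold lower in WT_UV, and 1.76- and 1.42-fold in these subsets. Klrk1, the activating receptor NKG2D, was at 344, 279 and 296 CPM, 1.23-fold lower (1.01 to 1.5), and 1.12-fold without MHC-rich members (0.901 to 1.38). Its adaptor Hcst lay the other way, at 206, 319 and 112 CPM, 1.55-fold higher in WT_UV (1.21 to 2).

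A few cytotoxic and chemokine genes rested on single cells. All 109 UMIs of the granzyme Gzma in WT_Ctrl came from 1 cell, and 76.5% of the 51 UMIs in WT_UV came from another. The chemokine Ccl5 drew 71.4% of its WT_Ctrl UMIs from 1 cell, and its direction turned when cells with Trac, Cd4, Cd8b1 or Foxp3 were left out. The granzyme Gzmc, at 123 CPM in WT_Ctrl and 289 in WT_UV, drew 47.1% of its WT_UV UMIs from 1 cell.

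The 12 genes with the lowest ratios included several that were much higher in gamma delta than in other T cells. Ctla2a, a cysteine protease inhibitor of activated T cells, had levels of 6566 CPM (6295 to 6847), 2200 CPM (2149 to 2253) and 2387 CPM (2091 to 2713), 2.98-fold lower in WT_UV and 1.97-fold lower in epidermal-leaning members without MHC-rich ones. Its near copy Ctla2b was at 1007, 241 and 326 CPM, and reads of the 2 genes may be split between them. In other T cells Ctla2a did not follow this difference, with 532 CPM in WT_Ctrl and 620 in WT_UV. Gem, a small GTPase, was at 1204, 395 and 622 CPM in gamma delta T cells and at 101 and 98.5 CPM in other T cells of WT_Ctrl and WT_UV. Rhou, another small GTPase, was 5.5-fold lower in WT_UV (3.39 to 8.78), the microtubule protein gene Map2 3.95-fold lower (3.14 to 4.95) and the transcription factor gene Zbtb20 3.74-fold lower (2.95 to 4.71).

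Areg belonged to the same group. It was at 508, 134 and 326 CPM, 3.8-fold lower in WT_UV (3.16 to 4.55), and 3.39-fold lower without MHC-rich members (2.77 to 4.14). In other T cells it was at 34.6 CPM in WT_Ctrl and 65.9 in WT_UV. Of the receptors for type 1 cytokines and the checkpoints, Il12rb2 was at 143, 38.9 and 20.4 CPM and Lag3 at 98.6, 29.5 and 0 CPM, where 0 UMIs in RP_UV allow up to 30.6 CPM.

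The remaining genes of the lowest 12 came largely from single cells of WT_Ctrl, which were not all the same cell. The keratinocyte genes Krt10, Krtdap and Lgals7 drew 84%, 89.4% and 85.7% of their WT_Ctrl UMIs from a single cell. Without MHC-rich members their log2 differences were −0.21, 0.56 and 0.57. Sbsn, also of keratinocytes, drew 52.5% of its WT_Ctrl UMIs from 1 cell, and Sparc, a matrix protein of fibroblasts, 71.7%. The fibroblast marker list held 1300 CPM in WT_Ctrl, of which 94.5% came from 1 cell, and 11.9 CPM in WT_UV. Without MHC-rich members the fibroblast list still held 1998 CPM in WT_Ctrl, and the log2 difference of Sparc was −3.80. The cell with the fibroblast markers thus stayed in the values without MHC-rich members.

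The 12 highest genes included survival genes. Bcl2a1d and Bcl2a1b, near copies that encode an anti-apoptotic protein, were at 14.9 and 41.8 CPM in WT_Ctrl, 134 and 166 in WT_UV, and 235 and 1142 in RP_UV. In WT_UV they were 8.98-fold (3.82 to 27.8) and 3.97-fold higher (2.35 to 7.32), and in epidermal-leaning members without MHC-rich ones 5.58-fold (1.48 to 47.1) and 10.8-fold (2.93 to 90.3). Reads may be split between such copies. The summed neutrophil markers described below rose in the same order in these cells, at 296, 943 and 9924 CPM. The part of myeloid RNA in the Bcl2a1d and Bcl2a1b levels was not tested. Pim1, a kinase induced by cytokine signals, was at 182, 499 and 949 CPM, 2.74-fold higher in WT_UV (2.12 to 3.6). Hspa1b, a heat shock gene with a near copy, was at 176, 468 and 143 CPM, 2.65-fold higher in WT_UV and 4.12-fold without MHC-rich members.

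Mrpl52, of the mitochondrial ribosome, was higher in WT_UV in other T cells too. It was at 74.7, 261 and 143 CPM in gamma delta T cells and at 141 and 310 CPM in other T cells of WT_Ctrl and WT_UV. It was highest in the library from the separate flow cell, whose part in the result was not tested. Hist1h2ap, a histone gene, drew 90.9% of its 11 UMIs in WT_Ctrl from 1 cell.

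The myeloid genes Tgfbi and Plek were 3.74- and 4.14-fold higher in WT_UV, and 1.71- and 1.92-fold higher without MHC-rich members, with intervals that then included 1. Il1b, Il1r2 and Cfp, genes of neutrophils and other myeloid cells, were also among the 12. Without MHC-rich members the log2 differences of Il1b and Cfp rose from 1.44 and 2.50 to 5.09 and 3.76. That of Il1r2 fell from 2.30 to 1.56. The summed level of 6 neutrophil markers was 296 CPM in gamma delta T cells of WT_Ctrl, 943 in WT_UV and 9924 in RP_UV, while 5, 0 and 1 of the 6 were at 0. Without MHC-rich members the sums were 4.67, 428 and 12417 CPM. Cxcl2, a chemokine that draws neutrophils, had 0 UMIs in WT_Ctrl and was at 354 CPM in WT_UV and 1948 in RP_UV. After thinning it was found in 0%, 5.33% and 27.6% of gamma delta T cells and in 3.86%, 14.2% and 30.5% of macrophages.

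Outside the extremes, genes of repair, activation and residence showed smaller or opposite differences. Furin, a protease that activates growth factors, was at 123, 289 and 133 CPM, 2.36-fold higher in WT_UV (1.73 to 3.31), and stood at 125 and 375 CPM in other T cells of WT_Ctrl and WT_UV. Icos had 1 UMI in WT_Ctrl, 210 in WT_UV and 9 in RP_UV, and its ratio of WT_UV to WT_Ctrl was 22 with an interval of 3.91 to 874. Its level in WT_UV, 65.9 CPM, was below the 285 CPM of other T cells. Cd69, a marker of activation and residence, was at 293, 241 and 439 CPM, and its ratio of 0.823 in WT_UV had an interval of 0.666 to 1.03. Cxcr6 was at 227, 233 and 235 CPM, and Tnf at 194, 138 and 184 CPM. Ltb was at 299, 246 and 296 CPM, with a ratio of 0.823 in WT_UV (0.667 to 1.02).

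Il7r and Ccr2, a receptor for inflammatory chemokines, were 2.01-fold (1.44 to 2.89) and 1.64-fold (1.23 to 2.23) higher in WT_UV, and 2.54- and 2.74-fold without MHC-rich members. In epidermal-leaning members without MHC-rich members the values were 1.73 and 1.99. The Il17-type list, with only Cd163l1 and Maf above the limit on level, had a median of 0.47 (−0.06 to 1.07), and its summed level was 317 (259 to 383), 488 (464 to 513) and 449 CPM (326 to 602).

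The lists that follow are to be read against the 2.63% of all compared genes that were at least 2-fold higher and the 3.8% that were lower. Among p53 targets, 1 of 6 compared genes was at least 2-fold higher in WT_UV and 0 at least 2-fold lower, with a median of 0.28 (−0.23 to 0.84). Cdkn1a, which encodes the cell cycle inhibitor p21, had levels of 203 (158 to 258), 490 (466 to 514) and 1428 CPM (1201 to 1685). A UMI was found in 8.79%, 24.1% and 44.8% of thinned gamma delta T cells and in 7.94%, 21.1% and 22.5% of thinned macrophages. Of 8 cell cycle genes compared, 0 passed 2-fold in either direction, and the median was −0.17 (−0.54 to 0.36). Of 6 interferon response genes, 1 was at least 2-fold lower. Of the 16 genes of AP-1 and dissociation stress, 1 was at least 2-fold higher, and the median was −0.04 (−0.24 to 0.20).

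**Figure D5:**
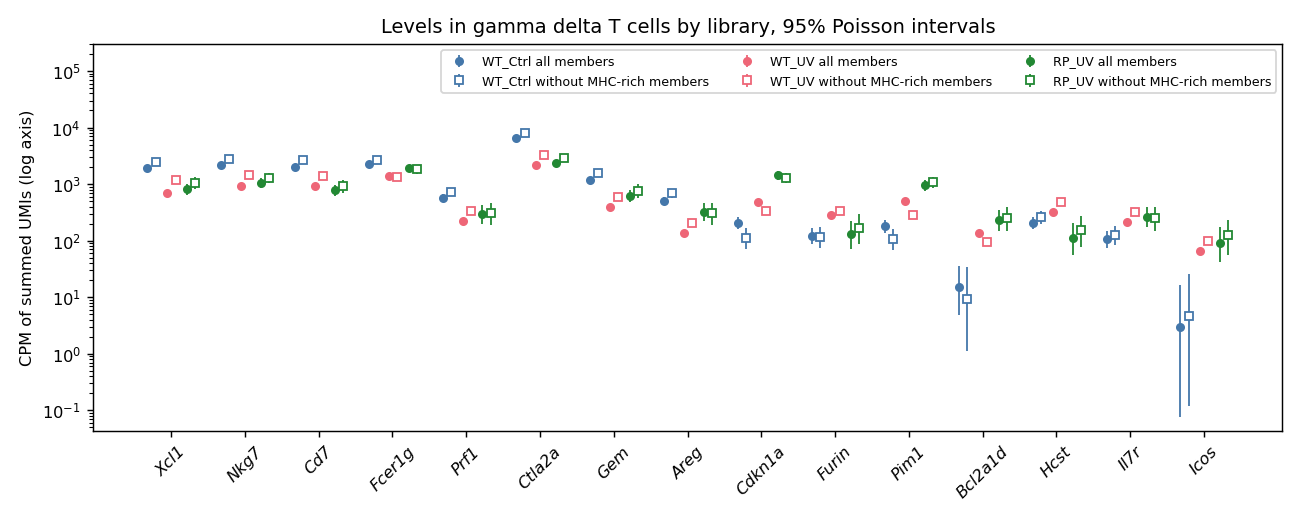
CPM of summed UMIs (vertical log axis) of 15 genes in gamma delta T cells of the 3 libraries, with exact Poisson 95% intervals, for all members (filled circles) and without MHC-rich members (open squares). The genes from Xcl1 to Areg lie highest in WT_Ctrl and those from Cdkn1a to Icos lie lower in WT_Ctrl than in WT_UV.

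In RP_UV, 33 cells gave coarse values. Compared with WT_Ctrl, with which it shared a flow cell, 331 of 3213 genes (10.3%) were at least 2-fold higher and 301 (9.37%) at least 2-fold lower. Of 8 compared genes of the epidermal-type list, 5 were at least 2-fold lower and 1 higher, with a median of −1.05 (−1.49 to −0.48). The list of cytokine receptors and survival genes had 8 of 15 genes at least 2-fold higher and 2 lower. Ptgs2 had 12 UMIs in 1 cell of WT_Ctrl, 384 UMIs in 9.01% of gamma delta T cells of WT_UV, and 56 UMIs in 27.3% of those of RP_UV, where 1 cell gave 50% of them. Without MHC-rich members Ptgs2 did not reach a mean of 50 CPM over WT_Ctrl and WT_UV. The part of MHC-rich members in its levels was not tested. Whether transcripts of the rat transgene were counted as mouse Ptgs2 was not given in the sources used here. Neutrophil markers, at 1% or more of the UMIs of 8 of the 33 cells, moved with this group, and their part in these values was not tested.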

How the data were processed

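Droplet-based 3′ single-cell libraries of CD45+ enriched skin were used, 1 per group. The values deposited by the authors were unnormalized counts of UMIs, and the submitters' processing notes name Cell Ranger 6.1.1 and the mm10 build. Total counts were 34985549 in WT_Ctrl, 82722013 in WT_UV and 37689836 in RP_UV, over 32285 genes. Cells with under 10% mitochondrial UMIs, more than 200 genes and fewer than 4000 genes (6000 in WT_UV, as in the study) were kept. In WT_UV, 60 of the gamma delta T cells had 4000 genes or more. Doublets were not removed, and an alternative dropped the top 5% of Scrublet scores (scanpy 1.11.5, expected rate 0.05). Between 8 and 11 barcodes were shared by each pair of libraries.

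UMIs were summed over the gamma delta T cells of a library and divided by their total to give CPM, with exact Poisson intervals. Ratios carry exact binomial intervals, and shares carry Wilson intervals (scipy 1.17.1). Log2 differences used a pseudocount of 1 CPM, and genes with a mean of at least 50 CPM were compared. A bound against 0 UMIs was set from 3 counts per library. With 1 library per group no test was possible.

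The members and the 28 gene lists were chosen with earlier results of these data known. Genes named are the 12 with the highest and the 12 with the lowest ratio of WT_UV to WT_Ctrl by the interval end nearest to no change (a UMI in at least 10% of cells of the higher library, without selection, mitochondrial, ribosomal, Gm, Rik and sex-linked genes), the 12 with the highest ratio to other T cells, genes of the lists, and list genes that differed most between leaning groups. Some genes that meet this rule are not reported here.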

Additional observations from a re-analysis of the deposited data

How the results depend on the processing

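No paired analysis was possible because each group was 1 library. The ratio of gamma delta shares of kept cells between WT_UV and WT_Ctrl lay between 2.30 and 4.13 under all alternatives run, and the log2 difference of Xcl1 between −0.71 and −1.75. With Ptprc-positive cells as the denominator, the ratios of WT_UV to WT_Ctrl and of RP_UV to WT_UV were 2.30 and 0.140. Without C1q and keratin limits, RP_UV to WT_Ctrl was 0.500 and the log2 difference of Ccl4 −0.38. With selection after thinning, the ratio of T cell shares between RP_UV and WT_Ctrl was 1.70, 80 genes were lower than in other T cells, and Gzma, Gzmc and Ccl5 had log2 differences of 2.68, −1.33 and 2.08. Without members holding Trac, Cd4, Cd8b1 or Foxp3, that ratio was 3.23, and the ratios of RP_UV to WT_UV were 0.139 of kept and 2.02 of T cells. The cells dropped as members stayed in these denominators. Gzma, Ccl5, Krtdap and Lgals7 then had 4.99, 2.76, 0.10 and 0.41. With at least 2 gamma delta UMIs, Gzma and Ccl5 had 2.32 and 2.46. With 4000 genes as the limit in every library, the epidermal-type, cytotoxic and lineage transcription factor medians were −0.59, −0.50 and 0.01, and Tgfbi and Il1b had −0.17 and −0.33. Without the top 5% of doublet scores, 157 genes were higher and 233 lower in WT_UV, and Krtdap and Lgals7 had 0.13 and 0.19.

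Without MHC-rich members, 203 genes were higher and 71 lower than in other T cells, and Krtdap and Lgals7 had 0.56 and 0.57. Thinned to 1000 UMIs, 177 genes were higher and 284 lower in WT_UV, 201 and 78 against other T cells, and the epidermal-type median was −0.63. With the mean of CPM over cells, 201 and 76 differed from other T cells, and the lineage median was 0.01. A minimum of 20 CPM gave 232 higher and 298 lower, and 234 and 72 against other T cells. Without a minimum these were 2137 and 1708, and 582 and 221, with a lineage median of 0.10. In epidermal-leaning members alone, Krtdap and Lgals7 had 0.39 and 0.51. In those without MHC-rich members, 78 genes were lower in WT_UV, 282 were higher and 108 lower than in other T cells, the epidermal-type, cytotoxic and lineage medians were −0.50, −0.35 and 0.04, and Krtdap and Lgals7 had 0.77 and 0.58. The cause of these shifts was not tested. Settings that leave out MHC-rich members or keep epidermal-leaning ones were chosen after seeing the data. Epidermal-leaning members were also chosen by the epidermal-type list itself. Of 854 values for 61 named genes, 614 moved by less than the counting interval, 220 by more, and 20 changed sign. The 33 cells of RP_UV, with 1 UMI worth 10.2 CPM, limit what can be seen there.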

Other observations

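Between WT_UV and WT_Ctrl, 2.63% of 3154 genes compared in gamma delta T cells were at least 2-fold higher and 3.8% at least 2-fold lower, and counts of 0 or 1 in the lists below do not stand apart from these shares. Of 11 compared homing and residence genes, 1 was at least 2-fold higher and 0 lower in WT_UV, with a median log2 difference of 0.03. Of 11 activation genes, 0 were higher and 1 lower (median −0.28). Of 13 cytokine receptor and survival genes, 3 were higher and 2 lower (median −0.08). Of 14 lineage transcription factors, 2 were higher and 0 lower (median −0.22). Of 12 lipid and energy metabolism genes, 1 was higher and 0 lower (median 0.24). Of 3 prostanoid receptors and enzymes, 1 was higher and 0 lower (median 0.38). Without MHC-rich members 0 of 2 compared genes of this list passed 2-fold (median 0.11). Ptger4, a receptor for prostaglandin E, stood at 32.9 CPM in WT_Ctrl, 33.6 in WT_UV and 20.4 in RP_UV.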
